A study of Mus musculus with 64 samples.

Results

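The genes described here are 38 mouse genes of the endoplasmic reticulum (ER) stress response and of the amino acid response, chosen by name for their known roles. Earlier results of these data were known when they were chosen. They are 38 of the 48440 genes listed in each of the 2 mRNA tables, and all 38 passed the filter on low values in both tissues. Messenger RNA was sequenced in 23 libraries, 12 from liver and 11 from gonadal adipose tissue. The animals were male and female 129S6/SvEvTac mice that expressed either the mouse arsenic methyltransferase (WT) or its human ortholog AS3MT (humanized). All animals drank water with inorganic arsenic at 400 ppb for 4 weeks, and no unexposed group was analysed here, so every comparison is between exposed animals. Liver had 3 libraries per group (replicates 1 to 3), and adipose tissue had 3 per group (replicates 4 to 6) except WT males, with 2. The labels do not say how the human gene was introduced or how old the mice were.

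Unfolded proteins in the ER are sensed by the kinase PERK (gene Eif2ak3), the kinase and nuclease IRE1 (Ern1) and the membrane-bound factor ATF6. IRE1 splices the mRNA of the transcription factor XBP1, and spliced XBP1 and cleaved ATF6 raise transcription of ER chaperones, disulfide isomerases and the machinery that removes misfolded proteins (ER-associated degradation). PERK shares its substrate, the translation factor eIF2, with kinases that sense heme shortage (Eif2ak1), double-stranded RNA (Eif2ak2) and uncharged tRNA (Eif2ak4). Phosphorylated eIF2 slows translation overall but favours that of ATF4, which induces genes for amino acid synthesis and transport. Liver and adipose tissue both secrete much protein, and hepatocytes hold extensive rough ER. The values are steady-state mRNA levels: neither splicing of Xbp1, cleavage of ATF6 nor phosphorylation of eIF2 is measured by them.

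The values are the authors' normalized signal per gene, which is not scaled by gene length, so levels are compared within a gene and not between genes. Summed over genes, normalized signal came to 77307210 to 95381805 in liver libraries and 83100312 to 90417259 in adipose libraries. The reads behind a value are not known, so precision is judged from the spread between libraries. Mouse As3mt, whose mRNA should be lost in humanized mice, checked the labels: it stood at 2624 to 6111 in WT liver and at 0 to 5.98 in humanized liver, and at 1218 to 1737 and 0 to 5.33 in adipose tissue. The hepatocyte marker Alb stood at 3970061 or more in every liver library, where the adipocyte marker Adipoq stood at 7.04 or less. Adipoq stood at 116720 to 325520 in adipose tissue, where Alb ranged from 598 to 129200. Liver libraries were made either after ribosomal depletion or with polyA selection, per the labels, and the model held this as a term. That term was called for 0 of 15180 genes (limma, Benjamini-Hochberg adjusted p under 0.05), with 659 genes (4.34%) and 3 of the 38 genes at an unadjusted p under 0.05. Summed RNAs without a polyA tail were 11198 to 27974 after ribosomal depletion and 12711 to 18161 with polyA selection, so these RNAs do not separate the libraries by the labelled preparation. Fits within a preparation rest on the labels alone.

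One liver library stood apart, and values that rest on it are given with and without it. In replicate 1 of the WT males, the only WT male library made after ribosomal depletion, 21 of the 38 genes (55.3%) had their highest value among the 12 libraries, against 18.3% of all genes tested. Among the chaperones, isomerases, degradation factors and secreted factors it was 16 of 17, all but Herpud1. Hspa5, which encodes the central ER chaperone BiP and is the usual readout of ER stress, stood at 129481 there and at 29495 to 65630 in the other 11 libraries. Hyou1, a chaperone that exchanges nucleotide on BiP, stood at 44830 against at most 18881. Creld2 and Manf, which encode secreted ER stress proteins, stood at 16851 and 21002 against at most 5352 and 8639. Syvn1, the ubiquitin ligase of ER-associated degradation, stood at 21571 against at most 6552, Xbp1 at 27180 against at most 14050, and Eif2ak3 at 2303 against at most 1386. Of the amino acid arm, Chac1 was highest there too, at 881 against at most 639, and Psph was at 466 against at most 462. Atf4 was 6244 there within a range of 4234 to 7961, Ddit3 679 within 334 to 885, and Atf3, at 49.0, was near the low end of its range of 44.3 to 298.45.

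In that library, 9 of the 38 genes (23.7%) were at least 1.5 times the highest of the other 11 libraries, against 2.48% of all genes. Other lists moved there too: the median gene of a 12-gene circadian clock list lay 1.01 below its mean on the log2 scale (deviation −1.01, against −0.26 to 0.35 in the other libraries), and that of an immediate early gene list lay at −0.76 (−0.42 to 0.94). Hepatocyte markers had a median deviation of 0.005, plasma cell markers, a list that holds Xbp1, had 0.107 (−0.58 to 0.34 in the others), and summed RNAs without a polyA tail were 27974 (11198 to 25459). B cell markers, of low signal, lay below every other library there, at −1.37 (−1.04 to 1.01 in the others). So did stellate cell and fibroblast markers, at −0.41 (−0.33 to 0.41), and ovary and oviduct markers, at −0.73 (−0.61 to 0.88). The other cell marker lists with tested genes lay within the range of the other libraries. The part of all these lists in the high chaperone values was not tested.

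**Figure D1:**
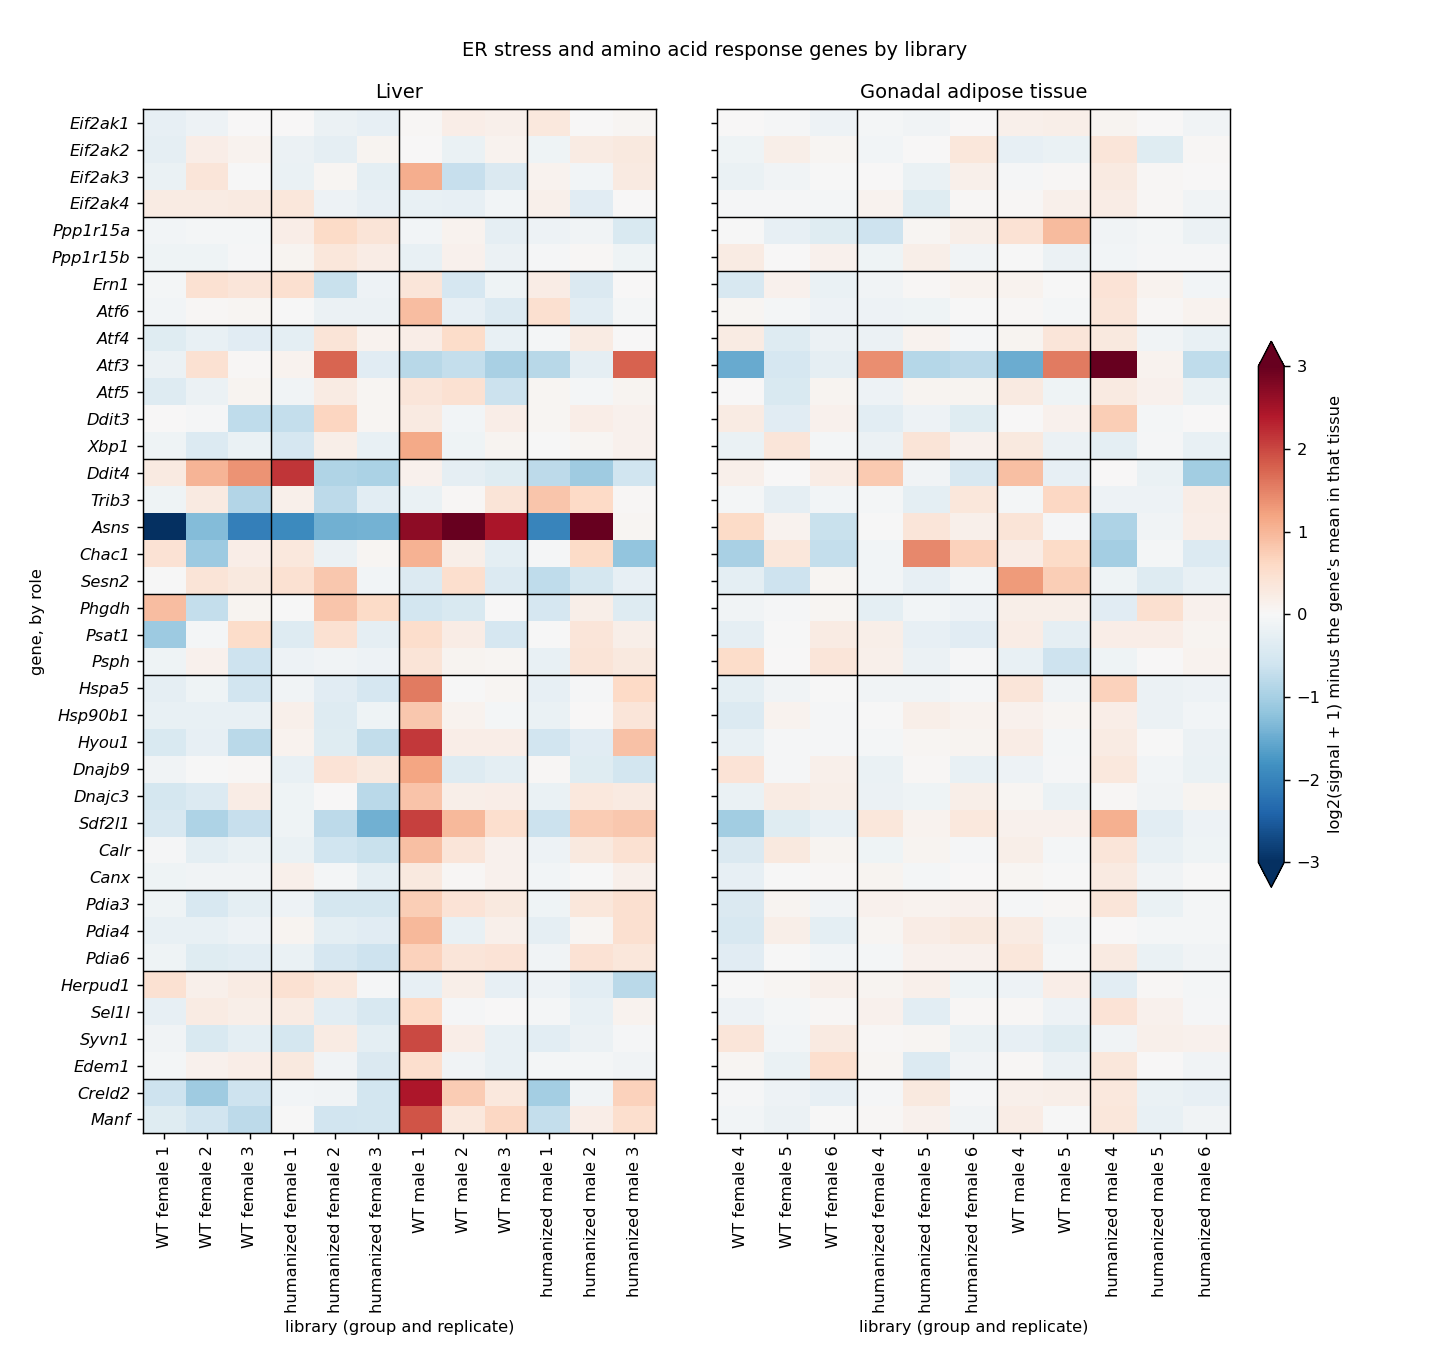
Heat map of log2(signal + 1) for the 38 genes (rows, in order of role) in each library (columns), as the deviation from the gene's mean over the libraries of that tissue; red is above and blue below that mean, and the scale is cut at 3. Black lines separate roles and groups. WT male replicate 1 stands out in liver from Hspa5 to Manf and humanized male replicate 4 in adipose tissue at Atf3.

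Promoters of the chaperone genes are known for the ER stress response element (ERSE), CCAAT and CCACG with any 9 bases between them, which ATF6 and XBP1 bind with NF-Y. It was searched on both strands in the 250 bases before and 50 after each start in RefSeq (GRCm38.p6), a window being present for 34 of the 38 genes. It was found in 8 of them, Hspa5, Hsp90b1, Calr, Canx, Dnajc3, Pdia6, Creld2 and Syvn1, and in 0.119% of all 32851 windows. ERSE-II, ATTGG and CCACG with any single base between them, was found at Herpud1 and in 0.0365% of all windows. The amino acid response motif bound by ATF4 (TGATGNAA) was found at Asns, Chac1, Atf3, Trib3 and Herpud1, and in 3.97% of windows. The promoter stretches printed here show both, and Chac1 as a further ATF4 target, for genes called between the sexes in liver or high in the library just described, with ERSE, ERSE-II and TGATGNAA matches in capitals (read as the reverse complement where the match is on the opposite strand).
Hspa5, plus strand, chr2:34771940-34772089: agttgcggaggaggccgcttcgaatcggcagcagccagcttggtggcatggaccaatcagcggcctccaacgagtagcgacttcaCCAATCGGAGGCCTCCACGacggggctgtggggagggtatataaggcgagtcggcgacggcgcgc
Pdia6, plus strand, chr12:17266439-17266588: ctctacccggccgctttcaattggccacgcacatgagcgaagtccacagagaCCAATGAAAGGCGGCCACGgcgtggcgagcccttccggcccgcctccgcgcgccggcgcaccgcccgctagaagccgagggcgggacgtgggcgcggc
Calr, minus strand, chr8:84847002-84847151: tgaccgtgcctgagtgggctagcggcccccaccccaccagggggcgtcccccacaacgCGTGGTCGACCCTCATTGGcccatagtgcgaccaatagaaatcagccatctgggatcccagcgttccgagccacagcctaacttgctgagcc
Creld2, plus strand, chr15:88819446-88819595: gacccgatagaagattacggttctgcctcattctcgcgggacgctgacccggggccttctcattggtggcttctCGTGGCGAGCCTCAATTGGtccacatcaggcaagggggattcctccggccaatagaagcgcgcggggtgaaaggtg
Herpud1, plus strand, chr8:94386279-94386428: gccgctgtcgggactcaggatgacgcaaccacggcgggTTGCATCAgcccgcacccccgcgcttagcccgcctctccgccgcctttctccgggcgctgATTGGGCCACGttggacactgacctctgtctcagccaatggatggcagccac
Asns, minus strand, chr6:7693210-7693329: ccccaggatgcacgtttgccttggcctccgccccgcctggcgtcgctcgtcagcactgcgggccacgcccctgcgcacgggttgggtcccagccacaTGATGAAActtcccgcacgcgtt
Chac1, plus strand, chr2:119350992-119351111: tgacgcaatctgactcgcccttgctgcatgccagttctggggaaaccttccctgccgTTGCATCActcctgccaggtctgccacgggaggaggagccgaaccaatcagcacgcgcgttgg

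Whether expression differed between the sexes was tested over both genotypes, and in liver 7 of the 38 genes were called, against 9.59% of all 15180 genes tested (4.12% higher and 5.47% lower in males). The 5 higher genes were the isomerases Pdia3 and Pdia6, the chaperones Calr and Sdf2l1, and asparagine synthetase (Asns), and the 2 lower genes were Sesn2 and Herpud1. With limma's unadjusted p under 0.05 there were 12 higher and 3 lower in males, and over all genes 12.3% and 13.8%. The median male minus female difference was 0.25 over the 38 genes and 0.01 over all genes, on the scale of log2(signal + 1). Without WT male replicate 1 the median was 0.12 and 4 genes were called, Pdia6, Pdia3, Asns and Sdf2l1, against 8.18% of all genes.

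Disulfide isomerases form and rearrange disulfide bonds in proteins that enter the ER. Pdia6 (ENSMUSG00000020571) stood at 24894, 20911 and 21670 in WT females and 23595, 18953 and 17583 in humanized females. In WT males it stood at 43623, 34513 and 36005, and in humanized males at 25247, 36775 and 34275. All 6 males lay above all 6 females, the nearest being humanized male replicate 1. The difference was 0.71 (SE 0.12, 1.64-fold higher in males, limma adjusted p = 0.00683).

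Pdia3 (ENSMUSG00000027248), which acts on glycoproteins held by calnexin and calreticulin, stood at 27970, 22096 and 24906 in WT females and 27544, 21427 and 21184 in humanized females. It stood at 50999, 40631 and 37439 in WT males and at 28001, 38857 and 42932 in humanized males. Again no male lay within the female range, though humanized male replicate 1 lay just above the highest female. The difference was 0.71 (SE 0.14, limma adjusted p = 0.0117). Non-overlap in this direction held for 2 of the 38 genes and for 2.92% of all genes. Pdia4, the third isomerase, had a difference of 0.39 (SE 0.20, limma adjusted p = 0.25), and 0.19 without WT male replicate 1, and its sexes overlapped. Both calls held without each of the 12 libraries in turn. Within the ribosomal depletion libraries the differences were 0.70 for Pdia6 and 0.66 for Pdia3, and within the polyA libraries 0.79 and 0.87, with adjusted p from 0.0886 to 0.175 in these smaller sets.

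Among the 8 chaperones 2 were called, both higher in males, and 7 had a difference above 0. Over all genes 4.12% were called higher. Without WT male replicate 1, 1 of the 8, Sdf2l1, was called and 7 were above 0. In that fit 3.59% of all genes were called higher and 7769 of 15190 were above 0. Calreticulin (Calr, ENSMUSG00000003814), a calcium-binding lectin chaperone, had a lowest value of 37039, a median of 49271 and a highest of 57418 in females, and of 52486, 73702 and 109756 in males. Only humanized male replicate 1 lay within the female range. The difference was 0.66 (SE 0.16, limma adjusted p = 0.0287), and 0.55 without WT male replicate 1 (limma adjusted p = 0.0516). Sdf2l1 (ENSMUSG00000022769), a partner of the BiP cochaperones in the ER, stood at 1721, 1272 and 1481 in WT females and at 2192, 1400 and 876 in humanized females. WT males stood at 9995, 4720 and 3383, and humanized males at 1535, 4054 and 4218. Here too 5 of 6 males lay above every female, with humanized male replicate 1 inside their range. The difference was 1.48 (SE 0.34, 2.80-fold, limma adjusted p = 0.0237), and 1.24 without WT male replicate 1 (limma adjusted p = 0.0466).

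Hspa5 (ENSMUSG00000026864) was not called between the sexes. It stood at 36138, 40171 and 29495 in WT females, 40562, 34383 and 30615 in humanized females, 129481, 43561 and 45485 in WT males, and 36617, 42264 and 65630 in humanized males. Its difference of 0.64 (SE 0.27, limma adjusted p = 0.157) was 0.35 without WT male replicate 1. Hyou1 had 0.83 and 0.45, Manf 0.95 and 0.70, and Creld2 1.02 and 0.63, with and without that library, and none was called either way. Dnajb9, a BiP cochaperone, went the other way: 4 of 6 males lay below every female, while WT male replicate 1 held the highest value, 6150. Its difference was −0.14 with and −0.40 without that library (limma adjusted p = 0.771 and 0.132). Hsp90b1 (GRP94) had 0.34, Canx (calnexin) 0.18 and Dnajc3 (an inhibitor of PERK and BiP cochaperone) 0.54, and without that library 0.21, 0.13 and 0.37, none called.

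**Figure D2:**
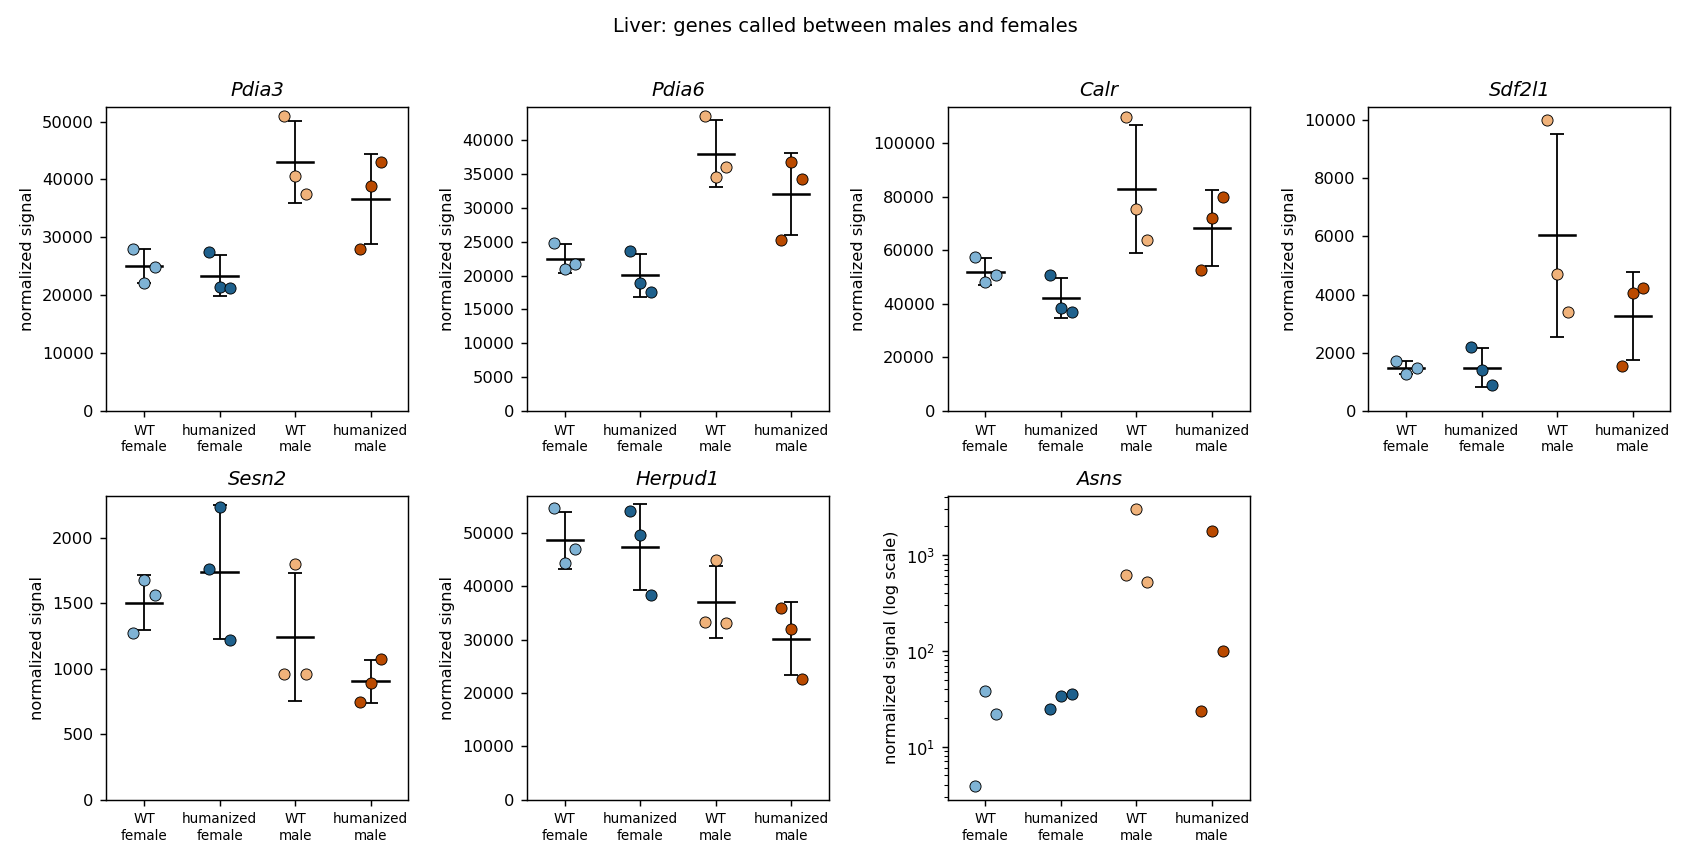
Normalized liver signal of the 7 genes called between the sexes, 1 point per library in each of the 4 groups; bars are the mean ± SD of 3 libraries, and Asns is drawn on a log axis without them. All male points for Pdia3 and Pdia6 lie above all female points, and humanized male replicate 1 is the lowest male in both and for Calr, Sdf2l1 and Asns.

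Asparagine synthetase (Asns, ENSMUSG00000029752), a direct target of ATF4, had the largest difference of the 38 genes. It stood at 3.89, 38 and 22.1 in WT females and 24.7, 34.1 and 35.1 in humanized females, all low. WT males stood at 621, 2995 and 527, and humanized males at 23.4, 1801 and 99.5. Of the 6 males 5 lay above every female, and humanized male replicate 1 lay within the female range. The difference was 4.14 (SE 0.95, limma adjusted p = 0.0235). Fits without WT female replicate 1 or 3, humanized female replicate 2 or WT male replicate 2 gave adjusted p from 0.0503 to 0.0629 and no call, with differences from 3.71 to 4.21.

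Of the other 4 targets of ATF4 and CHOP, 1 was called, in the other direction, and no test compared them with Asns. Over all genes 5.47% were called lower in males. Sesn2 (ENSMUSG00000028893), a sensor of leucine that restrains mTORC1, stood at 1274, 1683 and 1563 in WT females and at 1767, 2235 and 1218 in humanized females. It stood at 959, 1805 and 958 in WT males and at 750, 890 and 1077 in humanized males, so that 5 of 6 males lay below every female. The difference was −0.63 (SE 0.16, limma adjusted p = 0.0351), and 0.0617 was the adjusted p without WT male replicate 1. Trib3, a pseudokinase that feeds back on ATF4, had 0.56 (SE 0.23, limma adjusted p = 0.145), and 0.72 without WT male replicate 1 (limma adjusted p = 0.0751). Chac1, a glutathione-degrading enzyme, had 0.09 (SE 0.24), and Ddit4, an inhibitor of mTORC1, had −0.98 (SE 0.48, limma adjusted p = 0.229). Atf4 itself spanned 4234 to 7118 among females and 4672 to 7961 among males (0.24, SE 0.15, limma adjusted p = 0.333). Ddit3 (CHOP) had 0.26, Atf5 0.09 and Xbp1 0.42, the last 0.20 without WT male replicate 1, and Atf3 had −0.61 (SE 0.34), none called.

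Herpud1 (ENSMUSG00000031770), an ER membrane protein that assembles the degradation complex, fell in males. Females spanned 38444 to 54624 (median 48260) and males 22641 to 44917 (median 33258), with 5 of 6 males below every female. The difference was −0.53 (SE 0.15, limma adjusted p = 0.0483), and −0.45 without WT male replicate 1 (limma adjusted p = 0.0937). The other degradation factors had differences of 0.13 (Sel1l), 0.47 (Syvn1) and −0.01 (Edem1), and of 0.002, 0.11 and −0.13 without that library, none called. Calls for Calr, Herpud1 and Sesn2 each held in 3 of the 12 fits that left out 1 library, and that for Sdf2l1 in 6. Over these fits the count of genes called was 2 without WT female replicate 1 or 3 and 4 without WT male replicate 1. It was 3 without any 1 of replicate 2 of the WT females, replicate 2 of the humanized females, and replicates 2 and 3 of the humanized males, and it was 5 to 7 without each of the other libraries. Over all genes these fits called 854 to 1544, against 1456 (9.59%) from all 12 libraries.

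**Figure D3:**
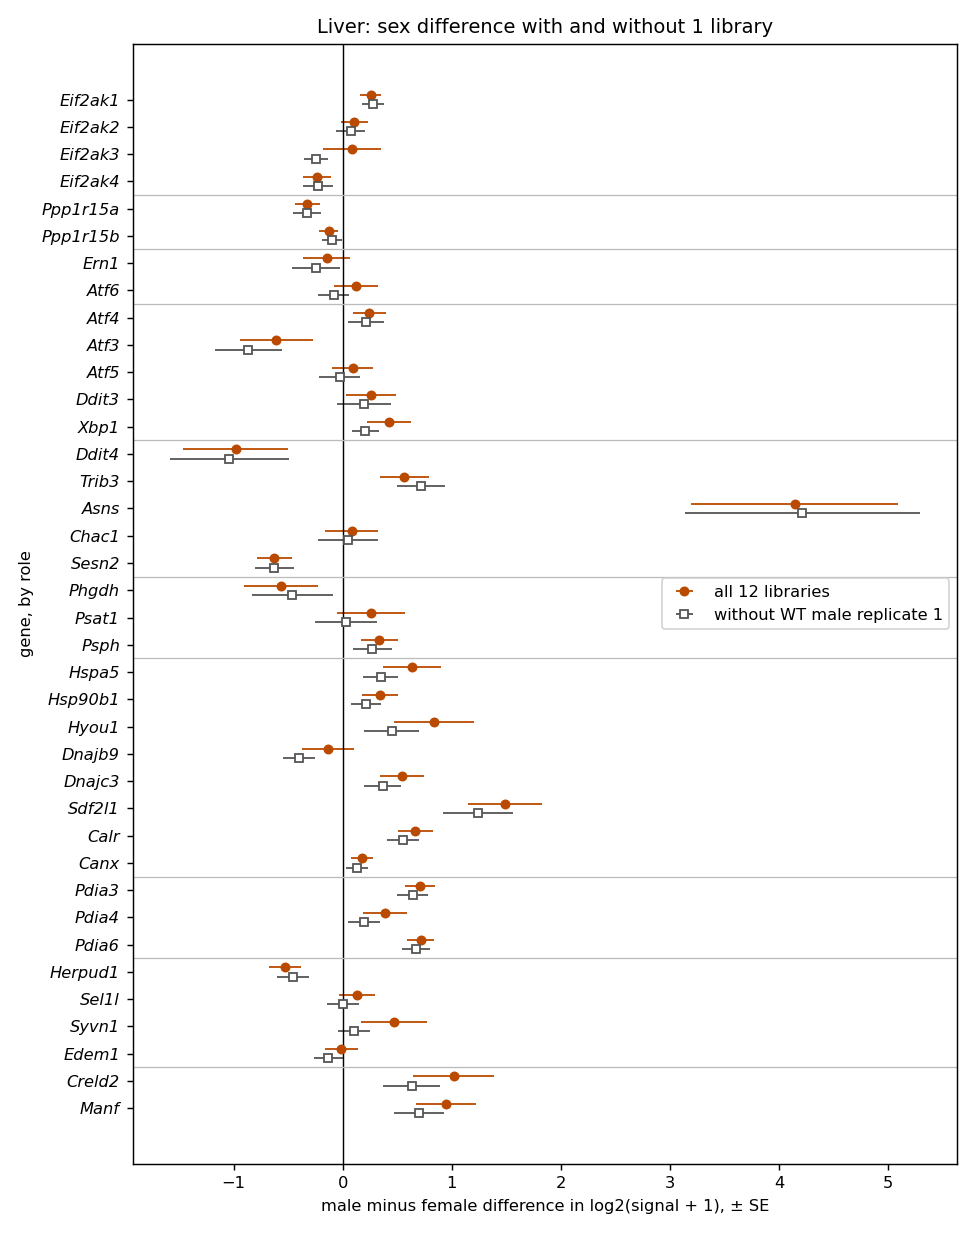
Male minus female difference in log2(signal + 1) in liver for each of the 38 genes, by role; points are estimates and lines ± SE, filled from all 12 libraries and open without WT male replicate 1. Estimates for most chaperones, isomerases and secreted factors lie right of 0 in both fits and nearer to 0 in the second, and Asns, at 4.14 and 4.21, lies farthest out.

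The sensors and kinases gave no call between the sexes. Eif2ak1 had a difference of 0.26 (SE 0.09, limma adjusted p = 0.112), with 5 of 6 males above every female. Eif2ak2 had 0.11, Eif2ak3 0.09, Eif2ak4 −0.24, Atf6 0.12 and Ern1 −0.15. With that library left out these were 0.07, −0.24, −0.22, −0.08 and −0.24, so that Eif2ak3 and Atf6 turned in sign. Ppp1r15a (GADD34), the inducible subunit of the phosphatase that reverses eIF2 phosphorylation, had −0.32 (SE 0.12, limma adjusted p = 0.103), and the constitutive subunit Ppp1r15b −0.13. The serine synthesis genes were low in liver in both sexes: Phgdh, its first enzyme, stood at 13.0 to 42.9 and Psat1 at 22.7 to 72.7, with differences of −0.57 and 0.26, and Psph, the last enzyme, had 0.34 (−0.46, 0.03 and 0.27 without that library, none called).

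Further genes of the pathways were listed by known role, with earlier results of these data known. They gave these counts in the same comparison. Of 18 genes of the translocon and signal peptidase, which bring proteins into the ER, 8 were called higher in males and none lower (median 0.46, 17 of 18 above 0; over all genes 4.12% were called higher and 5.47% lower). They included Sec11c (1.07, SE 0.16, limma adjusted p = 0.00258), Tram1 (0.53, 0.00692), Sec11a (0.45, 0.0227) and Sec61b (0.57, 0.0244). Of 18 further folding and redox genes 4 were called higher and none lower, Fkbp11 (1.44, SE 0.24, limma adjusted p = 0.00491), Ppib (0.48), Dnajb11 (0.77) and Uggt1 (0.50). Of 22 genes of degradation and ER export 1, Ube2j1 (0.39), was called higher, and all 22 had a difference above 0. Without WT male replicate 1, 20 of the 22 were above 0, against 7769 of all 15190 genes. Of the 9 amino acid transporters tested, 3 were called lower in males and none higher: Slc3a2 (−0.41), Slc1a5 (−1.08) and Slc38a2 (−0.67). Of 13 genes of amino acid and one-carbon synthesis 1 was called lower, Pck2 (−1.0), of 14 other ATF4 targets 2 were lower, Jdp2 (−1.21) and Vldlr (−1.83), and of 19 aminoacyl-tRNA synthetases none was called, with 8 higher at an unadjusted limma p under 0.05. In WT male replicate 1 the translocon, folding and redox, degradation and export, and tRNA synthetase lists had median deviations of 0.55, 0.48, 0.47 and 0.38, each above every other library. The ER sensor partners (0.43, at most 0.07 in the others), other ATF4 targets (0.24, at most 0.18) and eIF2 list (0.16, at most 0.14) did too. Amino acid and one-carbon genes lay below every other library (−0.261, at least −0.195 in the others). Transporters lay within the range of the others (−0.28, against −0.44 to 0.40). Without WT male replicate 1 (3.59% of all genes called higher and 4.6% lower), 4 translocon genes (Sec11a, Sec11c, Ssr3 and Tram1), 1 folding gene (Fkbp11) and no degradation or export gene were called higher, with medians of 0.31, 0.18 and 0.16. Called lower then were 2 transporters (Slc1a5 and Slc3a2), 2 genes of amino acid and one-carbon synthesis (Pck2 and Aldh18a1) and both ATF4 targets, and no tRNA synthetase was called (median 0.13). Of 14 genes of eIF2, eIF2B and their partners 1, the X-linked Eif2s3x (−0.48), was called lower, and of 12 partners of the ER sensors none, with 1 at an unadjusted limma p under 0.05.

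Markers of other liver cells also differed between the sexes. Of 8 endothelial markers 7 were called lower in males, with a summed signal of 8634 to 16162 in females and 6787 to 10056 in males. Of 10 macrophage markers 6 were called lower (20190 to 36473 in females, 13738 to 24590 in males), and of 8 T cell markers 3 (299 to 491, and 223 to 428). None of 10 hepatocyte markers was called (8066888 to 12213236 in females, 6999824 to 10318273 in males), with 1 at an unadjusted limma p under 0.05. Of 10 pancreatic acinar markers 5 to 8 were at 0 in each liver library, and of the 2 with enough signal to test, Cela1 was called higher in males (2.01). The summed signal of that list was 155 to 680 in females and 1124 to 2761 in males. Of 12 immediate early genes 4 were called lower in males, among them Fos (−1.14). When WT male replicate 1 was left out, 4 endothelial, 2 macrophage, 2 T cell and 3 immediate early markers were called lower and 1 hepatocyte marker, Cyp2e1, higher. The cholangiocyte marker Sox9 and Cela1 were then called higher too, and the plasma cell marker Sdc1 lower. In that fit all 6 cholangiocyte markers tested were above 0 (median 0.55). All 7 neutrophil markers tested were below 0 (median −1.37), with none called. The part of these differences in the 7 calls was not tested, and in bulk tissue fewer cells of a type and less RNA per cell cannot be told apart.

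The 8 genes with an ERSE all had a male minus female difference above 0 in liver, from 0.18 (Canx) to 1.02 (Creld2), with a median of 0.59, and 2 of them were called. Over all genes 4.12% were called higher. All 8 were above 0 without WT male replicate 1 too, from 0.11 to 0.67, the median was 0.36, and 1, Pdia6, was called. Of all 15190 genes, 7769 were above 0 in that fit and 3.59% were called higher. Chaperone, isomerase and degradation genes with a window but neither ERSE nor ERSE-II went both ways there. They had 1.24 (Sdf2l1), 0.64 (Pdia3), 0.19 (Pdia4), 0.002 (Sel1l), −0.13 (Edem1) and −0.40 (Dnajb9). Hyou1 and Manf, without a window, had 0.45 and 0.70. No test compared genes with and without the motif. Of the 29 other genes with the motif in a window, 12 were tested in liver, 4 of those had a difference above 0, none was called, and the median was −0.33 (−0.27 without that library, with 1 called lower). The members were chosen as targets of this response, so that the share with the motif is a description. Herpud1, with ERSE-II, and Asns and Chac1, with TGATGNAA, had differences of −0.53, 4.14 and 0.09, so genes with the same motif differed in direction or size. A match in these windows is a description and not a site shown to be bound.

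Whether the genotype changed these genes in liver was tested in each sex, over both sexes and as the difference between the sexes. In males 0 of the 38 genes were called by limma, against 0.0329% of all genes, with 1 higher and 3 lower at an unadjusted p under 0.05 (4.33% and 2.81% of all genes). The median humanized minus WT difference was −0.25, with 10 genes above 0 and 28 below. Without WT male replicate 1 it was 0.02, with 21 above 0, and within the ribosomal depletion and polyA libraries it was −0.60 and 0.09. In females 0 were called, against 0.0198%, with 2 higher at an unadjusted p under 0.05 (2.54% of all genes), and the median was 0.001. Over both sexes 0 were called, against 0.0329%, with 2 higher at an unadjusted p under 0.05 (2.6% of all genes) and a median of −0.16. For the difference between the sexes 0 were called, against 0.00659%, with 2 lower at an unadjusted p under 0.05 (3.33% of all genes) and a median of −0.24. Without WT male replicate 1 the medians were 0.07 in females, 0.07 over both sexes and −0.02 for the difference between the sexes, with no member called.

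In males the lower genes at an unadjusted p under 0.05 were Creld2, Manf and Chac1. Creld2 stood at 16851, 5352 and 3893 in WT males and at 1541, 2901 and 5069 in humanized males (−1.37, SE 0.54, limma adjusted p = 0.677). Manf stood at 21002, 7060 and 8639 against 3420, 6488 and 8049 (−1.05, SE 0.40, limma adjusted p = 0.67). The difference between the sexes was −1.84 for Creld2 (SE 0.74, limma adjusted p = 0.598). Without WT male replicate 1 the male differences were −0.41 for Creld2 and −0.44 for Manf (limma adjusted p = 0.939 and 0.916), and that between the sexes was −1.08 for Creld2. The male groups overlapped for both genes, and in the 3 polyA libraries of males Creld2 and Manf were slightly higher in the humanized one (0.15 and 0.04). Chac1 had −0.83 (SE 0.35, limma adjusted p = 0.688).

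Atf3, a stress-induced repressor, was the higher gene in males. It stood at 49.0, 53.1 and 44.3 in WT males and at 48.9, 72.7 and 298.45 in humanized males. Humanized male replicate 3, the only polyA library of its group, lay far above the others. The difference was 1.44 (SE 0.49, limma adjusted p = 0.63), and 2.08 without WT male replicate 1 (limma adjusted p = 0.516). Within the ribosomal depletion libraries it was 0.28, and within the polyA libraries 2.60. In females Atf3 stood at 77.4, 121 and 89.4 against 94.3, 294 and 68.5 (0.77, SE 0.49), and 294 was the only polyA library of the humanized females. Over both sexes its difference was 1.10 (SE 0.36, limma adjusted p = 0.88), with 0.17 within the ribosomal depletion libraries and 2.04 within the polyA libraries. The other gene at an unadjusted p under 0.05 over both sexes was Ppp1r15b (0.20, SE 0.09, limma adjusted p = 0.88).

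Both eIF2 phosphatase subunits were higher in humanized females at an unadjusted p under 0.05. Ppp1r15a stood at 968, 980 and 971 in WT females and at 1163, 1527 and 1334 in humanized ones, without overlap (0.45, SE 0.17, limma adjusted p = 0.786). Ppp1r15b, the constitutive subunit, stood at 7986, 7966 and 8522 against 9237, 10976 and 10153, again without overlap (0.33, SE 0.13, limma adjusted p = 0.786). In males the differences were −0.16 and 0.08, and the difference between the sexes was −0.61 for Ppp1r15a (SE 0.23, limma adjusted p = 0.594). Non-overlap in the higher direction held for 7.35% of all genes in females, and for 3 of the 38, these and Creld2.

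The remaining named genes showed no called genotype difference in liver. In males the difference was −0.52 for Hspa5, −0.36 for Xbp1, −0.07 for Atf4, 0.04 for Ddit3, 0.32 for Trib3, 0.05 for Eif2ak3 and 0.04 for Phgdh. Without WT male replicate 1 these were 0.21, 0.18, 0.007, 0.21, −0.06, 0.88 and −0.22, so that 5 of the 7 turned in sign. Eif2ak3 then had the value farthest from 0 of these (SE 0.18, limma adjusted p = 0.413). Asns had −2.37 (SE 1.38, limma adjusted p = 0.736) in males and 1.19 (SE 1.38, limma adjusted p = 0.874) in females. In females Hspa5 had −0.08, Xbp1 0.01, Atf4 0.42, Ddit3 0.29, Trib3 −0.17, Eif2ak3 −0.25 and Phgdh 0.32. None of the genes of the further pathway lists was called for genotype in liver.

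In adipose tissue 0 of the 38 genes were called by limma in males, against 0.0172% of all 17394 genes tested, with 2 higher and 2 lower at an unadjusted p under 0.05 (4.13% and 4.28% of all genes) and a median of −0.03. In females 0 were called, against 0.0172%, with 3 higher at an unadjusted p under 0.05 (3.1% of all genes) and a median of 0.07. Over both sexes 0 were called, against 0.023%, with 1 lower at an unadjusted p under 0.05 (3.06% of all genes). For the difference between the sexes 0 were called, against 0% of all genes, with 2 higher and 3 lower at an unadjusted p under 0.05 (3.26% and 3.54% of all genes).

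Sesn2 had the smallest p of the 38 genes for genotype. It stood at 13374 and 9260 in the 2 WT males and at 5055, 4276 and 4743 in humanized males, without overlap. WT females stood at 4551, 3619 and 5770 and humanized females at 5286, 4658 and 5257, so the WT males alone were high. The difference was −1.25 in males (SE 0.20, 2.38-fold lower, limma adjusted p = 0.174) and 0.15 in females (SE 0.18). The difference between the sexes was −1.40 (SE 0.28, limma adjusted p = 0.446), and over both sexes −0.55 (SE 0.14, limma adjusted p = 0.454). Leaving out each library in turn gave −1.51 to −0.98 in males, with adjusted p from 0.11 to 0.475.

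Ppp1r15a followed the same order in males, at 2359 and 3410 in WT against 1620, 1679 and 1563 in humanized males (−0.81, SE 0.24, limma adjusted p = 0.409). WT females stood at 1730, 1474 and 1366 and humanized females at 1134, 1833 and 1987, so here too the WT males were the highest (difference between the sexes −0.89, SE 0.33, limma adjusted p = 0.676). Syvn1 and Psph (phosphoserine phosphatase) were lower in WT males: Syvn1 at 5330 and 4944 against 5878, 7065 and 6936 (0.36, SE 0.15, limma adjusted p = 0.564), and Psph at 1196 and 919 against 1288, 1427 and 1512 (0.42, SE 0.19, limma adjusted p = 0.59). Their differences between the sexes were 0.57 and 0.75 (limma adjusted p = 0.674 and 0.661). The male groups did not overlap for 6 of the 38 genes, these 4 with Chac1 and Eif2ak1. With 2 WT males, 23.3% of all genes did not overlap in one direction or the other.

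In females the 3 genes at an unadjusted p under 0.05 were Chac1, Pdia4 and Sdf2l1. Chac1 stood at 455, 1127 and 551 in WT and at 846, 2424 and 1460 in humanized females, with overlap (1.13, SE 0.44, limma adjusted p = 0.933), and at 1042 and 1328 against 442, 866 and 673 in males. Its difference between the sexes was −2.02 (SE 0.66, limma adjusted p = 0.661). Sdf2l1 stood at 964, 1553 and 1721 against 2532, 2136 and 2490 (0.80, SE 0.34, limma adjusted p = 0.933), and Pdia4 had 0.38 (SE 0.16, limma adjusted p = 0.933).

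**Figure D4:**
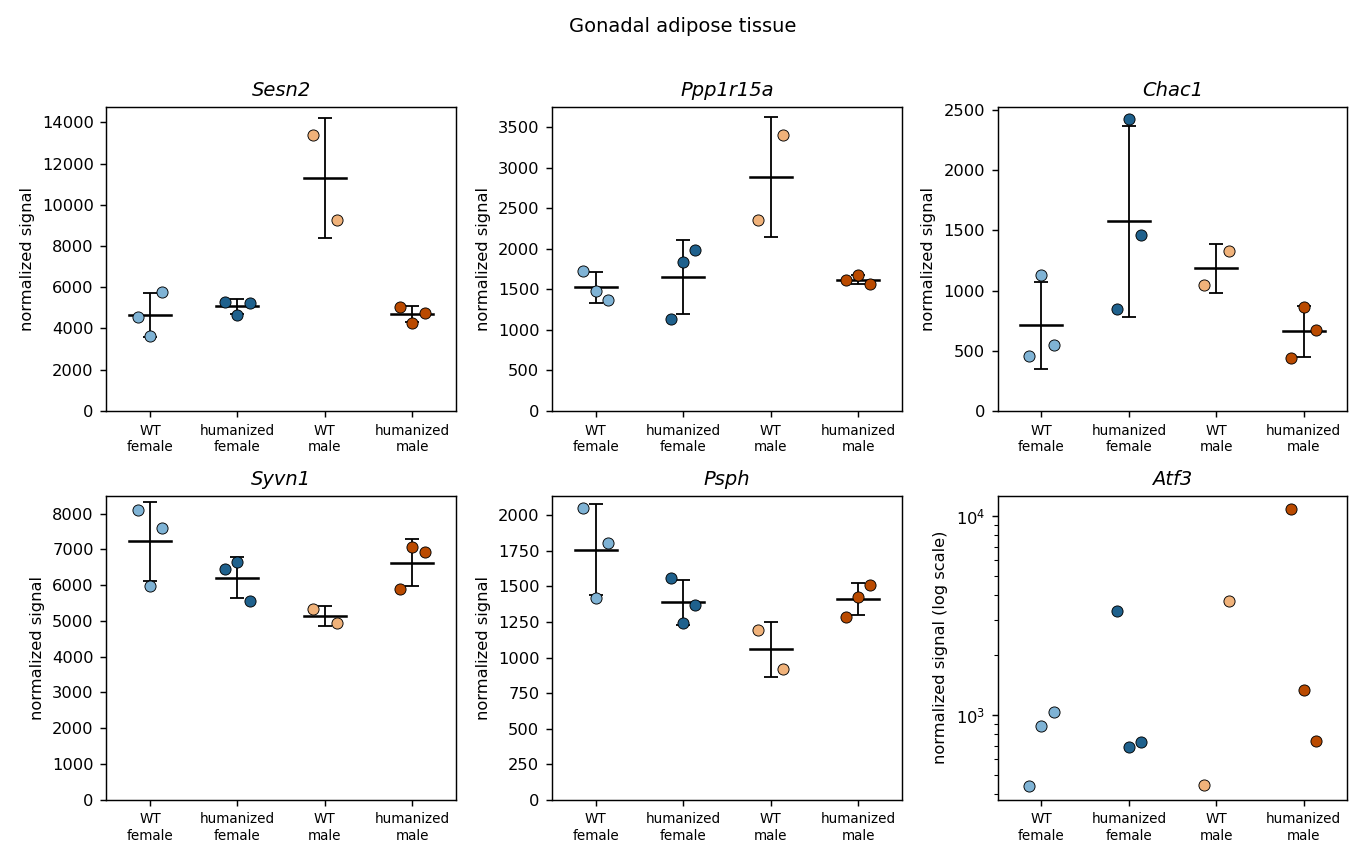
Normalized adipose signal of Sesn2, Ppp1r15a, Chac1, Syvn1, Psph and Atf3, 1 point per library in each group (3 libraries, 2 for WT males); bars are the mean ± SD, and Atf3 is drawn on a log axis without them. Both WT males lie above every other library for Sesn2 and Ppp1r15a and below every other library for Syvn1 and Psph.

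Between the sexes 0 of the 38 genes were called in adipose tissue by limma, against 0.42% of all genes, with 2 higher and 1 lower in males at an unadjusted p under 0.05 (5.2% and 7.34% of all genes). The higher ones were Sesn2 (0.59, SE 0.14, limma adjusted p = 0.121) and Ppp1r15a (0.46, SE 0.16, limma adjusted p = 0.3), and the lower one Psph (−0.35, SE 0.13, limma adjusted p = 0.298). The 5 genes called higher in male liver had adipose differences of 0.11 (Pdia6), 0.03 (Pdia3), 0.06 (Calr), 0.32 (Sdf2l1) and −0.13 (Asns). The tables were normalized and fitted separately, and whether these differences differ between the tissues was not tested. Of the further pathway genes only Eif2s3x was called, lower in males (−0.78, limma adjusted p = 0.00118).

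The central genes of the response had no called difference in adipose tissue. Hspa5 stood at 32393 to 39000 in 9 of the 11 libraries, at 51059 in WT male replicate 4 and at 63186 in humanized male replicate 4. Atf3 ranged from 440 to 10772, with 10772 in humanized male replicate 4, 3722 in WT male replicate 5 and 3315 in humanized female replicate 4. Atf4 stood at 5068 to 8453, Ddit3 at 1149 to 2481, Xbp1 at 13866 to 21967, Trib3 at 811 to 1524 and Eif2ak3 at 2263 to 3163. Humanized male replicate 4 held the highest value for 18 of the 38 genes (47.4%), against 20.7% of all genes. In the same library the summed macrophage markers were 285624 (42068 to 132806 in the other 10), the summed adipocyte markers 1678451 (2432952 to 3078608) and Fos 3654 (329 to 1558), and the part of these in its values was not tested. Summed hepatocyte markers ranged from 5181 to 385681 over the adipose libraries, highest in WT male replicate 5.

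Levels in the 2 tissues are set side by side as a description, from tables normalized separately. For 29 of the 38 genes the ranges over libraries overlapped, for 7 adipose tissue lay above liver, and for 2 liver lay above adipose tissue. Phgdh and Psat1, of serine synthesis, stood farthest apart by their means, and the third gene of that pathway, Psph, less so. Phgdh stood at 13.0 to 42.9 in liver and 32776 to 58742 in adipose tissue, Psat1 at 22.7 to 72.7 and 11105 to 16677, and Psph at 231 to 466 and 919 to 2051. Asns stood at 3.89 to 2995 in liver and 2575 to 7316 in adipose tissue, where WT and humanized males and females overlapped, so that 1 liver library, WT male replicate 2, reached the adipose range. Sesn2, Ddit3, Atf3 and Eif2ak2 were the other genes higher in adipose tissue, and Herpud1 (22641 to 54624 in liver, 4385 to 6284 in adipose tissue) and Atf5 (24490 to 53085, and 12232 to 20421) were higher in liver.

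**Figure D5:**
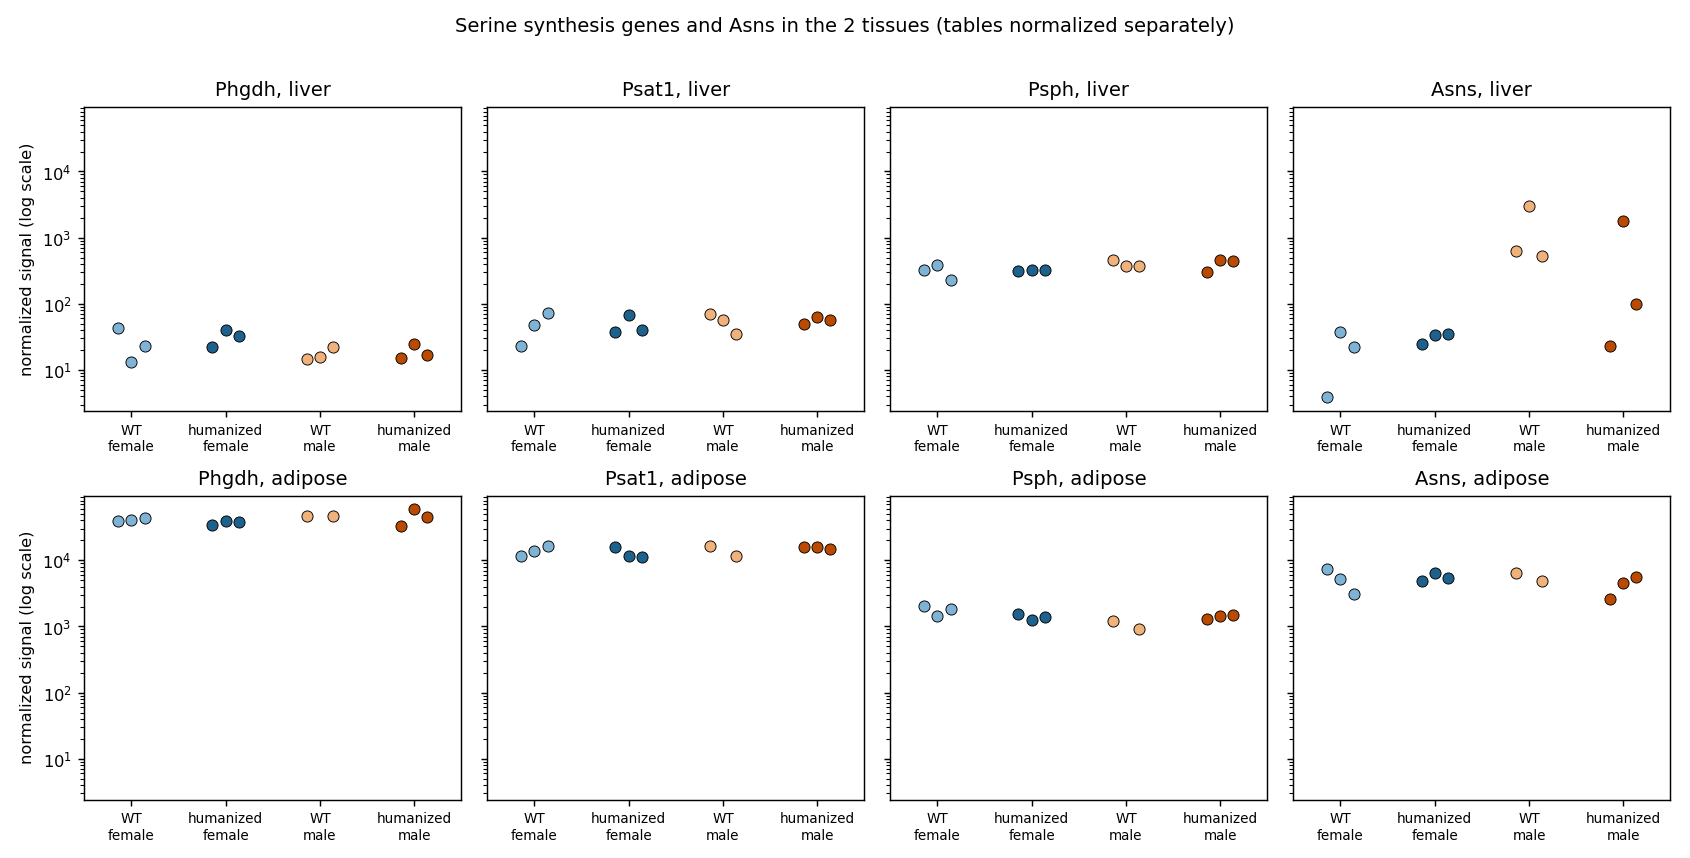
Normalized signal of Phgdh, Psat1, Psph and Asns in liver (top) and gonadal adipose tissue (bottom), 1 point per library in each group, on 1 log axis shared by all panels; the 2 tables were normalized separately. Serine synthesis genes lie low in every liver library, and liver Asns ranges from 3.89 in a WT female to 2995 in a WT male.

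Some values may hold reads of a neighbour, since the counting is not stated to use strand. In RefSeq 15 of the 38 genes overlap another gene and 11 a protein-coding one, among them Pdia3 (Catsper2), Pdia6 (Atp6v1c2), Hspa5 (Rabepk), Ddit3 (Mars1 and Mbd6), Psph (Cct6a), Syvn1 (Mrpl49) and Ppp1r15a (Tulp2). Asns, Sdf2l1, Calr, Sesn2 and Herpud1 overlap none.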

How the data were processed

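The authors deposited, per tissue, a table of signal per gene that its title calls DESeq-normalized; the submitters' processing notes list DESeq2, STAR, Salmon, limma and mm9 without versions or roles. The labels' protocols give the liver kit and preparations and cite a published protocol for adipose tissue. Reads could not be recovered from the signal. Genes with a mean of at least 10 (15180 in liver, 17394 in adipose tissue) entered limma (3.58.1, under R 4.3.3; moderated with a mean trend) as log2(signal + 1), with 4 groups in 1 model and the labelled preparation in liver. Called means an adjusted p (Benjamini-Hochberg, over all genes) under 0.05. The scale understates changes of low genes. The labels call the libraries separate samples without naming animals, so p-values measure the spread between these libraries. Members and lists were chosen with earlier results of these data known. Named were 9 central genes, every called member, up to 3 members per direction and genotype comparison by smallest p under 0.05, and called genes of further lists; others named were chosen after their values were seen. The code of the fit was run on simulated data with independent noise between libraries and no outlying library. That run does not test the calls made here. The 41 small RNA libraries were not used here. Replicate numbers come from the titles. In adipose tissue deviations of all 3 same-numbered pairs of WT with humanized females (r = 0.17 to 0.193) and of humanized females with humanized males (0.148 to 0.399) correlated above 0.1. Other group pairs in either tissue did not all do so, and WT females with humanized males had −0.105 to 0.049. Some pairs of different numbers were as high, such as WT female replicate 5 with humanized male replicate 6 (0.213). These values do not decide whether the numbers pair the samples, and the labels do not say so. The fit with the number as a block changed no member's call in adipose tissue.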

Additional observations from a re-analysis of the deposited data

How the results depend on the processing

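Other pseudocounts (0.5 and 10), filters (a mean above 0 or of at least 50), rescaling, fits of only the compared groups, no preparation term, single preparations and leaving out each library were tried. Members called for genotype stayed at 0 in both tissues under all of these, except that within the ribosomal depletion libraries 1, Syvn1, was called lower in humanized males (−2.22, limma adjusted p = 0.0288), against a single WT male. Between the sexes in liver, the 7 members called became 1 within the ribosomal depletion libraries (Syvn1), 1 within the polyA libraries (Sdf2l1) and 2 to 7 without each library in turn; these fits hold fewer samples. The Syvn1 difference of 1.12 within the ribosomal depletion libraries rests on WT male replicate 1, at 21571. The other males of that preparation, at 4419 and 4848, lay within the range of its females (3841 to 5097). Calr lost its call with the replicate block (limma adjusted p = 0.0571), Herpud1 with no filter beyond a mean above 0 (0.0739) and Sesn2 with no preparation term (0.0675). In males Manf and Creld2 turned to 0.044 and 0.151 within the polyA libraries. Over all genes, calls between the sexes in liver ranged from 159 to 1544 and in adipose tissue from 39 to 91, and those for genotype from 2 to 46 in liver males, 2 to 7 in liver females, 2 to 25 over both sexes and 0 to 11 for the difference between the sexes, and from 2 to 8, 2 to 8, 2 to 7 and 0 to 6 in adipose tissue. Deviations of same-numbered libraries correlated from −0.455 to 0.241 in liver (over 0.1 in 3 of 18 pairs) and from −0.105 to 0.399 in adipose tissue (9 of 15 pairs). In neither tissue do these values decide whether the numbers pair the samples. With the replicate block 6 members were called between the sexes in liver and 0 in every other comparison. No member was called in adipose tissue under any of these settings. Leaving WT male replicate 1 out of the further lists and the ERSE genes was chosen after seeing the data. Depth per library is unknown.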
